A study of Rattus norvegicus with 15 samples.

Results

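Notch signalling links neighbouring cells. Jagged and Delta ligands on one cell bind Notch receptors on the next, the receptor is cut by ADAM proteases and gamma-secretase, and its intracellular part joins the DNA-binding protein Rbpj and Mastermind proteins at target genes such as Hes1. Fringe enzymes, Lfng among them, add sugars to the receptors and so change which ligands bind well. In teeth the pathway is known from the growing molar epithelium and the surrounding mesenchyme and vessels, and loss of Jag2 in mice is known to alter crown shape.

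Expression of this pathway was measured by RNAseq in single molar tooth germs of wild type DA/HanRj rat embryos. There were 5 libraries of E15 (labelled E15.5, bud stage), 5 of E17 (labelled E17.5, cap stage) and 5 of E18, with no treatment in any group. For E18 the labels state the genotype and the lower first molar, whereas for E15 and E17 they state only the first molar, and the study's methods call these germs wild type. Each stage carries its own code in the sample titles, and the labels do not say what this code stands for. Stage and title code cannot be told apart. E17 replicates 1 and 2 come from both sides of the jaw of 1 embryo. The members were a list of 10 genes (receptors, ligands, modifier, nuclear effector and targets), and 8 of these had a row among the 14185 genes of the table. Rbpj had an identifier but no row, and Hey1 could not be paired with an identifier, so both are named only. The rows carry mouse Ensembl identifiers, and the 8 members are Notch1 (ENSMUSG00000026923), Notch2 (ENSMUSG00000027878), Notch3 (ENSMUSG00000038146), Jag1 (ENSMUSG00000027276), Jag2 (ENSMUSG00000002799), Dll1 (ENSMUSG00000014773), Lfng (ENSMUSG00000029570) and Hes1 (ENSMUSG00000022528).

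The libraries held between 10993502 and 27571541 estimated counts, and all but 3 of the 15 stood close to the lower end of this range. Levels below are counts divided by a size factor for each library (normalized counts). They are not corrected for gene length, so a level of one gene is not compared with a level of another. The dissected germs held both tooth tissues, as all 5 epithelial markers (among them Trp63, Cdh3 and Edar) and all 6 mesenchymal markers (Msx1, Pax9, Barx1, Runx2, Pdgfra and Col1a1) that could be joined were above 0 in every library. Markers of endothelium, muscle, cartilage, glia and blood could not be joined to identifiers and were not analysed here. In whole germs, fewer cells of a type and less RNA per cell cannot be told apart.

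All 8 genes matched a promoter window in RefSeq (rat GRCr8) by symbol, and among them Hes1, Lfng and Dll1 had more than 1 copy of the core motif of Rbpj in the 250 bases before the start. The motif searched was TGGGAA, or TTCCCA on the other strand, and no other motif was searched. At least 1 copy was present in 22.1% of 33469 promoters and at least 2 copies in 2.71%. The stretches that hold the copies are shown because these 3 genes are a target, a modifier and a ligand of the same pathway, with the motif copies in capitals and each stretch read 5′ to 3′ on the gene's strand, which is the minus strand for all 3.
Hes1, chr11:84213129-84213188: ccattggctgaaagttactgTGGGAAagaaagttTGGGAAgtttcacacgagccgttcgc
Lfng, chr12:19153016-19153088: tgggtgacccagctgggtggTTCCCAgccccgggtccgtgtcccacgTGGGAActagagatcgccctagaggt
Dll1, chr1:64993331-64993479: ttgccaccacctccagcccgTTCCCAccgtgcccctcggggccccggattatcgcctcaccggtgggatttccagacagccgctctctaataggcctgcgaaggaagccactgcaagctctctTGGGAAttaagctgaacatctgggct
In Hes1 both copies lie on the gene's own strand, at positions -123 and -109 from the start. In Lfng (positions -150 and -123) and Dll1 (positions -185 and -82) the more distant copy is on the opposite strand and the nearer one on the gene's strand. The windows of Notch1, Notch2, Notch3, Jag1 and Jag2 held no copy. Rbpj, which has no row in the table, had 2 overlapping windows with 1 and 2 copies, and the copy in the first is also 1 of those in the second. A match is a description of the letters in the window, and these data hold no measurement of binding there.

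The first question was which receptors changed between the stages. Notch1, a receptor known from the dental epithelium, was at 2997, 3056, 3231, 2683 and 3144 normalized counts in E15 replicates 1 to 5. It was at 5221, 5027, 4946, 5123 and 4977 in the E17 libraries and at 5122, 6455, 8174, 5832 and 6473 in the E18 libraries. Every E17 and E18 library was above every E15 library, whereas E17 and E18 overlapped through E18 replicate 1. The means were 3022 ± 209.5 at E15, 5059 ± 113 at E17 and 6411 ± 1130.2 at E18 (SD, n = 5 each).

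Notch2 was at 8396, 9724, 8767, 8763 and 8794 normalized counts in E15 replicates 1 to 5. The E17 libraries held 9110.1, 9186, 9455, 8629.6 and 8893, and the E18 libraries 10010.1, 10105, 12116, 11056 and 10174. Levels at E15 and E17 overlapped throughout, and all 5 E18 libraries were above all 10 others. The means were 8889 ± 495, 9055 ± 311 and 10692 ± 899.6 at E15, E17 and E18 (SD, n = 5 each).

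Notch3, a receptor known from vessel-associated cells, was at 4743, 4733, 3492, 4685 and 5366 normalized counts in E15 replicates 1 to 5. It was at 5067, 5303, 4954, 4484 and 5369 at E17, and at 5739, 5578, 8772, 5542 and 6806 at E18. As for Notch2, the E15 and E17 ranges overlapped and the E18 libraries lay above both, and E15 replicate 3 was low and E18 replicate 3 high. Its mean was 4604 ± 682 at E15, 5035 ± 352 at E17 and 6487 ± 1378 at E18 (SD, n = 5 each).

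**Figure D1:**
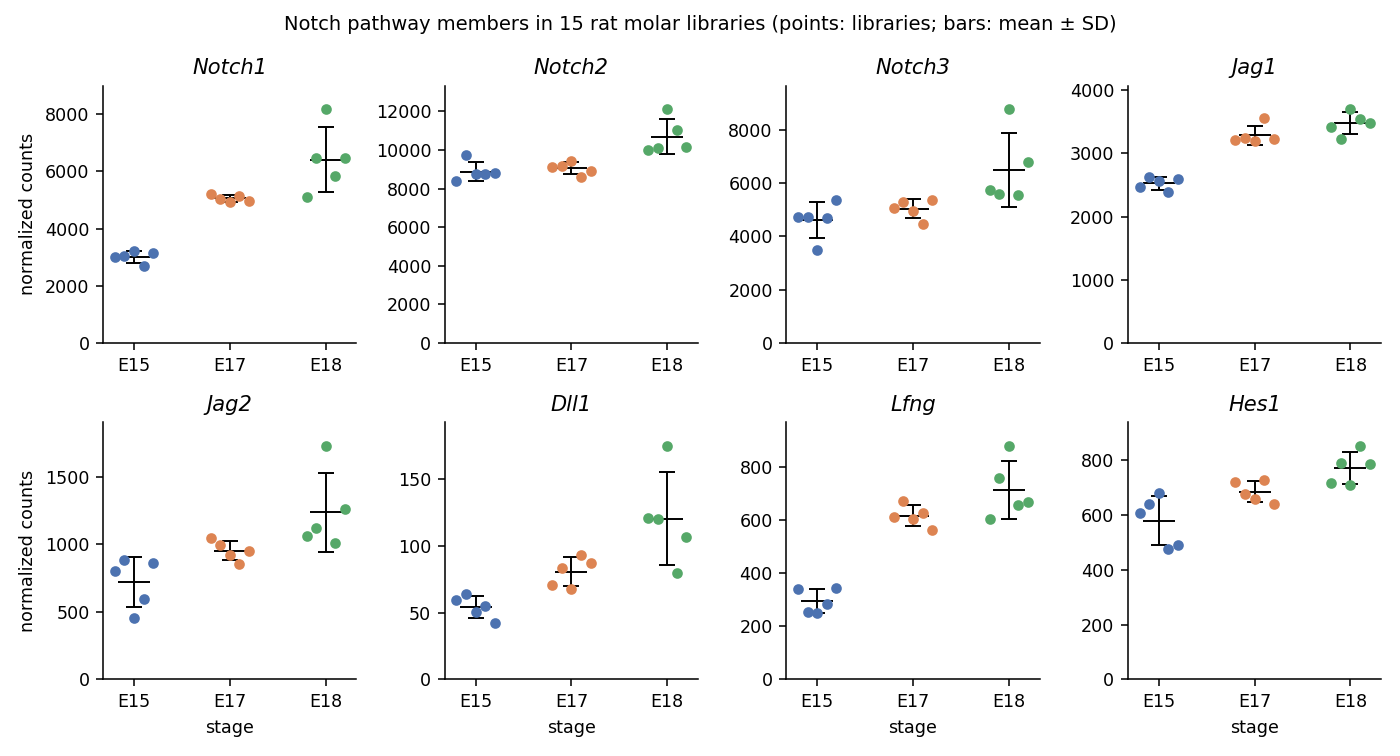
Normalized counts (y axis, linear from 0) of the 8 genes by stage (x axis); each point is 1 library and the bars give the mean ± SD of 5 libraries. Notch1, Jag1, Dll1 and Lfng separate E15 from E17, whereas Notch2 and Notch3 separate E18 from both earlier stages.

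Among the ligands, Jag1 was at 2469, 2626, 2556, 2385 and 2590.5 normalized counts in E15 replicates 1 to 5. It was at 3218, 3249, 3189, 3552 and 3228 at E17 and at 3422, 3224, 3699, 3543 and 3487 at E18. The E15 libraries lay below all others, and E17 and E18 overlapped. At E15 and E18 its spread relative to its mean was the smallest of the 8 genes. The means were 2525 ± 98.0, 3287 ± 149.8 and 3475 ± 174 at E15, E17 and E18 (SD, n = 5 each).

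Jag2, the ligand that the study lists among genes needed for normal tooth shape, was at 803, 885, 457, 591 and 860.1 normalized counts in E15 replicates 1 to 5. It was at 1042, 994, 917, 856 and 950.0 at E17, and at 1062, 1118, 1730.5, 1007 and 1260.3 at E18. Neighbouring stages overlapped, and E15 and E18 did not. The spread was wide at the first and last stage (719 ± 187 at E15 and 1236 ± 292 at E18) and narrow between them (952 ± 71.4 at E17; SD, n = 5 each).

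Dll1 had the lowest counts of the 8 genes, between 38 and 250 reads per library, so its values carry the most counting error. It was at 59.6, 63.7, 50.5, 54.9 and 42.5 normalized counts in E15 replicates 1 to 5, at 71.0, 83.7, 67.4, 92.8 and 87.3 at E17, and at 121, 120.1, 175, 79.4 and 106 at E18. The E15 libraries were below all others, while E18 replicate 4 fell within the E17 range. The means were 54.2 ± 8.21, 80.5 ± 10.8 and 120.4 ± 34.9 at E15, E17 and E18 (SD, n = 5 each).

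The modifier Lfng was at 338, 252, 249, 284 and 342 normalized counts in E15 replicates 1 to 5. It was at 609, 672, 603, 625 and 563 at E17, and at 602, 759, 879, 655 and 666 at E18. The lowest E17 library was far above the highest E15 library, and E17 and E18 overlapped. The means were 293 ± 45.1, 615 ± 39.4 and 712 ± 109 at E15, E17 and E18 (SD, n = 5 each).

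Hes1, a transcriptional repressor and common readout of Notch activity, was at 606, 641, 681, 477 and 492 normalized counts in E15 replicates 1 to 5. It was at 722, 678, 657, 728 and 641 at E17, and at 718, 791, 709.6, 854 and 785 at E18. Neighbouring stages overlapped, and every E18 library was above every E15 library. The means were 579 ± 90.7, 685 ± 38.7 and 772 ± 59.1 at E15, E17 and E18 (SD, n = 5 each).

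From bud to cap stage, Lfng, Notch1, Dll1 and Jag1 rose, so that a receptor, a pair of ligands and the modifier were higher at E17. In edgeR's quasi-likelihood test with Benjamini-Hochberg adjustment over all genes tested, Lfng rose 2.10-fold (log2 fold change 1.07, SE 0.10, adjusted p = 1.61e-05) and Notch1 1.69-fold (0.75, SE 0.06, adjusted p = 2.64e-06). Jag1 rose 1.31-fold (0.39, SE 0.05, adjusted p = 0.000251) and Dll1 1.49-fold (0.57, SE 0.18, adjusted p = 0.0434). Of all 12627 genes tested, 18.3% were called in either direction and 11.3% were called higher, against 4 of the 8 Notch genes, all higher. The same 4 genes had every E17 library above every E15 library, which held for 9.23% of all genes, and 16.3% of all genes had groups apart in either direction. Jag2 (log2 fold change 0.41, SE 0.15, adjusted p = 0.0752), Hes1 (0.25, SE 0.10, adjusted p = 0.103), Notch3 (0.14, SE 0.09, adjusted p = 0.345) and Notch2 (0.04, SE 0.05, adjusted p = 0.682) did not pass. The log2 fold change of Lfng was above that of 96.4% of all genes tested, that of Notch1 above 93.2% and that of Notch2 above 57.8%.

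The call of Dll1 at this step was unstable, with an adjusted p between 0.0215 and 0.101 over 18 alternatives, 12 of which put it above 0.05. These include leaving out any 1 library other than E15 replicate 2 and E17 replicate 3. They also include summing both teeth of the shared E17 embryo, after which only Jag1, Lfng and Notch1 were called. Jag2 passed without E15 replicate 2 (adjusted p = 0.0484) and in DESeq2's Wald test (adjusted p = 0.0452), and Hes1 passed without E15 replicate 3 (adjusted p = 0.0237).

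**Figure D2:**
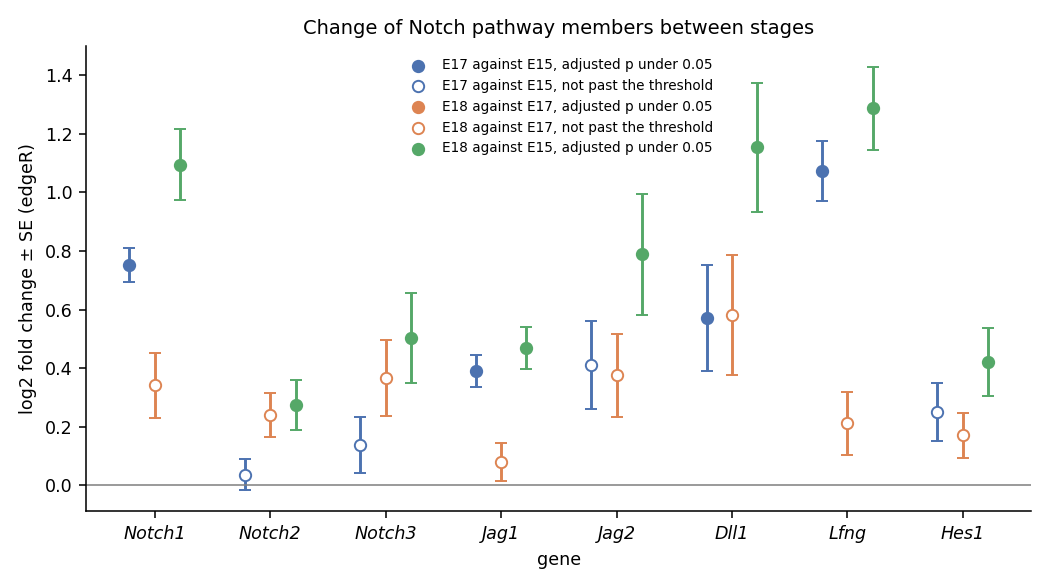
Log2 fold change ± SE (y axis) of the 8 genes (x axis) in the 3 comparisons, from edgeR with 5 libraries per stage; filled points have an adjusted p under 0.05. All 24 points lie above 0, with 4 filled for E17 against E15, 0 for E18 against E17 and 8 for E18 against E15.

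Epithelial markers moved in the same direction at this step, and this was measured beside the Notch genes. All 5 were called higher at E17, with a median log2 fold change of 0.59, against a median of 0.40 for the 8 Notch genes and -0.01 for all genes. Their summed level ranged from 3790.1 to 5578 normalized counts at E15 and from 6770 to 7678 at E17. The 5 mesenchymal markers other than Col1a1 summed to between 27309 and 30288 at E15 and to between 21921 and 23756 at E17. Among them Msx1 (log2 fold change -0.42, adjusted p = 0.0136) and Pdgfra (-0.27, adjusted p = 0.0452) fell, whereas Col1a1, which bone-forming cells also express, rose (1.19, adjusted p = 0.00367). With Col1a1 the direction of the sum was the opposite. All 6 mesenchymal markers summed to between 77207 and 159043 at E15 and to between 148420 and 279102 at E17. Genes of the enamel knot, the signalling centre that forms in the cap stage epithelium, had a summed level of 557 to 792 normalized counts in the E15 libraries, 1422 to 1794 in those of E17 and 1957 to 2824 in those of E18. Of 7 such genes tested at the first step, 3 were called higher and 0 lower, with a median log2 fold change of 1.17. Their estimates ranged from -0.50 to 4.57 and 6 were above 0, so these genes did not all move alike. The part of tissue proportions in the change of the Notch genes was not tested. Cspg4, the 1 marker of vessel-associated mural cells that could be joined, was at 1557 to 2261 normalized counts at E15, 2656 to 3125 at E17 and 2723 to 4065 at E18.

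From E17 to E18, no Notch gene passed the threshold in edgeR, although the estimates were positive for all 8. By an unadjusted p under 0.05, 6 of the 8 passed, beside 15.9% of all 12718 genes, and DESeq2 also called 0 after adjustment. After adjustment, 2.54% of all genes were called and 1.91% were called higher. The largest estimates were those of Dll1 (log2 fold change 0.58, SE 0.20, adjusted p = 0.192), Jag2 (0.38, SE 0.14, adjusted p = 0.222), Notch3 (0.37, SE 0.13, adjusted p = 0.199) and Notch1 (0.34, SE 0.11, adjusted p = 0.154). They were followed by Notch2 (0.24, SE 0.07, adjusted p = 0.139), Lfng (0.21, SE 0.11, adjusted p = 0.373), Hes1 (0.17, SE 0.08, adjusted p = 0.314) and Jag1 (0.08, SE 0.07, adjusted p = 0.575). Notch2 and Notch3 had every E18 library above every E17 library, which held for 4.18% of all genes (6.78% in either direction). Of the epithelial markers, 3 of 5 were called higher (median log2 fold change 0.56), and their sum ranged from 8298 to 10648 at E18.

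Single libraries weighed on this step. Without E18 replicate 3, the number of genes called rose from 323 to 713 and Notch2 passed at a smaller log2 fold change of 0.18 (adjusted p = 0.0494). Without E18 replicate 1, the deepest library, Notch1 passed (0.41, adjusted p = 0.0473). Without both, an alternative chosen after seeing the data, Notch1 (0.30, adjusted p = 0.00349) and Notch2 (0.20, adjusted p = 0.0362) passed.

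Over the whole span from E15 to E18, all 8 genes were called higher, and in all 8 every E18 library was above every E15 library. Of 12661 genes tested, 21% were called and 14.2% were called higher, and 12.7% had all E18 libraries above all E15 libraries (23% apart in either direction). Lfng (2.44-fold, log2 fold change 1.29, SE 0.14, adjusted p = 8.54e-05), Dll1 (2.23-fold, 1.15, SE 0.22, adjusted p = 0.00313) and Notch1 (2.14-fold, 1.09, SE 0.12, adjusted p = 9.29e-05) more than doubled. Jag2 rose 1.73-fold (0.79, SE 0.21, adjusted p = 0.0184), Notch3 1.42-fold (0.50, SE 0.15, adjusted p = 0.0387) and Jag1 1.39-fold (0.47, SE 0.07, adjusted p = 0.000785). The smallest increases were those of Hes1 (1.34-fold, 0.42, SE 0.12, adjusted p = 0.0242) and Notch2 (1.21-fold, 0.28, SE 0.09, adjusted p = 0.0404). This comparison uses the same libraries as the other comparisons and is not independent of them. All 5 epithelial markers were again called higher, with a median log2 fold change of 1.13 against 0.65 for the 8 Notch genes. Of the 6 mesenchymal markers, Msx1, Pdgfra and Runx2 fell, whereas Col1a1 rose (1.47, adjusted p = 0.00121). Pax9 (-0.49, adjusted p = 0.0821) and Barx1 (-0.01, adjusted p = 0.973) did not pass.

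Lfng, Notch1, Jag1 and Dll1 passed in each of the 18 alternatives at this span. Notch2 missed the threshold in 10 of them (adjusted p up to 0.102), Notch3 in 7 (up to 0.0788), Hes1 in 5 (up to 0.0636) and Jag2 in 1, without E15 replicate 4 (0.0526). The count of genes that passed was between 4 (without E15 replicate 4) and 8 when 1 library was left out, and it stayed at 8 without E18 replicate 3. Without E18 replicate 5, 5 passed. Leaving out E15 replicate 1, E15 replicate 3, E15 replicate 5, E18 replicate 2 or E18 replicate 4 left 6, and leaving out E15 replicate 2 left 7.

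Whether a gene changed by a different amount in the 2 steps was tested as the second step minus the first, over all 15 libraries. None of the 8 passed in edgeR, and 0.551% of 12894 genes did. At an unadjusted p under 0.05, 3 of the 8 and 8.61% of all genes passed. DESeq2 was not run for this contrast. Lfng had the largest difference, -0.86 on the log2 scale (SE 0.20, adjusted p = 0.0771), followed by Notch1 (-0.41, SE 0.17, adjusted p = 0.489) and Jag1 (-0.31, SE 0.10, adjusted p = 0.289). Notch3 (0.23, SE 0.23, adjusted p = 0.913) and Notch2 (0.21, SE 0.12, adjusted p = 0.721) had positive estimates, and those of Hes1, Jag2 and Dll1 were between -0.08 and 0.01. Without E18 replicate 3, Lfng (-0.95, adjusted p = 0.00791) and Notch1 (-0.51, adjusted p = 0.0315) passed, that is, both rose less in the second step than in the first. Thus the calls at E17 and their absence at E18 do not show that the steps differed for these genes. The steps also differ in length. By the labels the first runs from E15.5 to E17.5 and the second from E17.5 to E18, and the changes were not scaled for this.

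Because gene length cancels in the change of a ratio, the counts of member pairs were compared within each library. The ratio of Notch1 to Notch2 was 0.341 ± 0.0284 at E15, 0.559 ± 0.0266 at E17 and 0.598 ± 0.0732 at E18 (SD, n = 5 each). No E15 library (0.306 to 0.369) overlapped those of E17 (0.523 to 0.594) or E18 (0.512 to 0.675). Relative to Notch3 the separation was less clear, with Notch1 at 0.672 ± 0.145, 1.01 ± 0.0850 and 0.997 ± 0.107. There the E15 libraries (0.573 to 0.925) lay just below those of E17 (0.927 to 1.14) and overlapped those of E18 (0.893 to 1.16). The ratio of Notch3 to Notch2 was 0.519 ± 0.0810 at E15, 0.556 ± 0.0356 at E17 and 0.604 ± 0.0906 at E18, with overlapping ranges. Hes1 relative to Notch1 was lower at the later stages, at 0.191 ± 0.0236, 0.135 ± 0.00509 and 0.123 ± 0.0232, and its E15 libraries (0.157 to 0.211) did not overlap those of E17 (0.129 to 0.142) or E18 (0.0868 to 0.146). Hes1 itself did not fall, as from E15 to E18 it rose 1.34-fold and Notch1 2.14-fold. Hes1 relative to Notch2 was at 0.0652 ± 0.0101, 0.0758 ± 0.00597 and 0.0726 ± 0.00825, with ranges that overlapped at all stages. The Jag2 to Jag1 ratio was 0.284 ± 0.0692, 0.290 ± 0.0310 and 0.354 ± 0.0705, and its ranges overlapped at all stages. The ratios themselves depend on gene length, and no test was made on them.

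The study's pathway list holds 25 further Notch genes, of which 23 had a row (Maml3 and Notch4 did not) and 22 were tested. Dll3, a Delta-like protein, was too low to test, at 0 to 11.2 normalized counts. From E15 to E17, 2 of the 22 rose, among them Neurl1a, a ubiquitin ligase for ligands (log2 fold change 0.67, SE 0.19, adjusted p = 0.0266). Maml1, a Mastermind coactivator, fell (-0.22, SE 0.06, adjusted p = 0.0144), and the other 19 did not pass. Of all genes, 11.3% were called higher and 7.02% lower at this step, so the share of these 22 that rose was near the background. Neurl1a lost its call without E15 replicate 4, E17 replicate 3, E17 replicate 4 or E17 replicate 5 (adjusted p up to 0.0703). With all 15 libraries in 1 fit, Neurl1a was the 1 gene of the 22 that passed (adjusted p = 0.0297), and Maml1 did not (adjusted p = 0.0592). From E17 to E18, 0 of 22 passed in edgeR, with 6 at an unadjusted p under 0.05 (15.9% of all genes), and 0 passed in DESeq2.

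From E15 to E18, 5 of the 22 further genes rose and 0 fell, beside 14.2% of all genes called higher. Among them, Neurl1a (1.05, SE 0.21, adjusted p = 0.00392) and Psen2, a gamma-secretase subunit (0.61, SE 0.14, adjusted p = 0.0106), passed in each of the 18 alternatives. Aph1a, another gamma-secretase subunit (0.46, SE 0.14, adjusted p = 0.0409), and the ligand Dll4 (0.49, SE 0.16, adjusted p = 0.0484) each missed the threshold in 10 of 18 alternatives. Neurl1a had the largest change, with 104, 54.9, 89.3, 81.8 and 109.6 normalized counts in E15 replicates 1 to 5, 113, 127, 149.7, 171 and 139 at E17, and 130.0, 191, 204, 169 and 213 at E18. Its E15 libraries were below all others.

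The 22 further genes had median log2 fold changes of 0.04, 0.08 and 0.13 in E17 against E15, E18 against E17 and E18 against E15, beside 0.40, 0.29 and 0.65 for the 8 members and between -0.02 and -0.01 for all genes. The ADAM proteases Adam10 and Adam17, the gamma-secretase gene Ncstn and the endocytic regulators Numb and Numbl did not pass in any comparison. Of a further list of 11 Notch genes outside the study's pathway list, only Hes5 could be paired with an identifier, which had no row, and the other 10 were not analysed here.

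**Figure D3:**
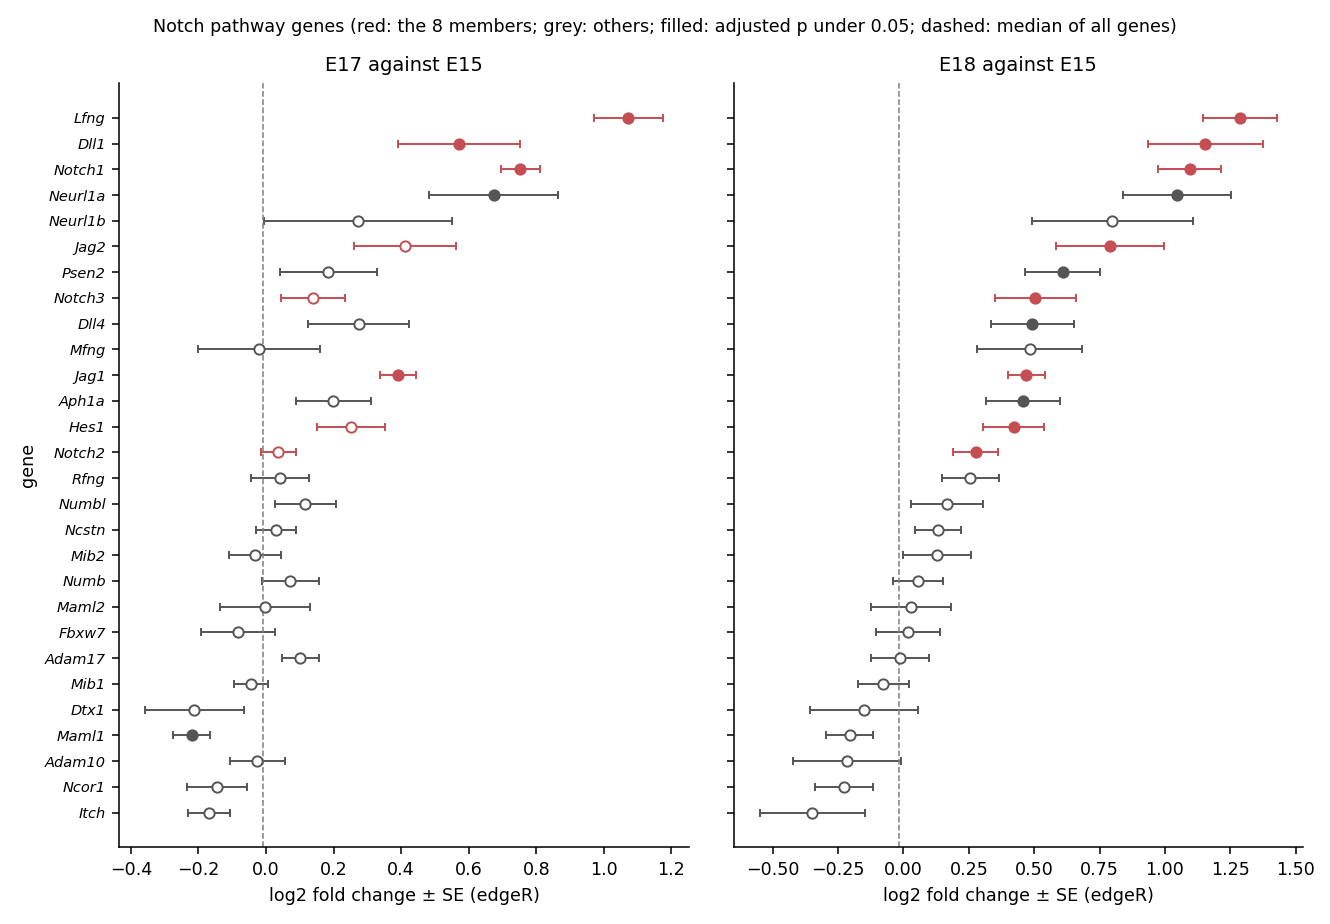
Log2 fold change ± SE (x axis) of 28 Notch pathway genes (y axis) at E17 and E18 against E15, from edgeR with 5 libraries per stage; red marks the 8 members, grey 20 others, filled points an adjusted p under 0.05 and the dashed line the median of all genes. Lfng is highest in both panels, Neurl1a is the highest grey point in both, and Notch2 is the lowest of the members in both.

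**Figure D4:**
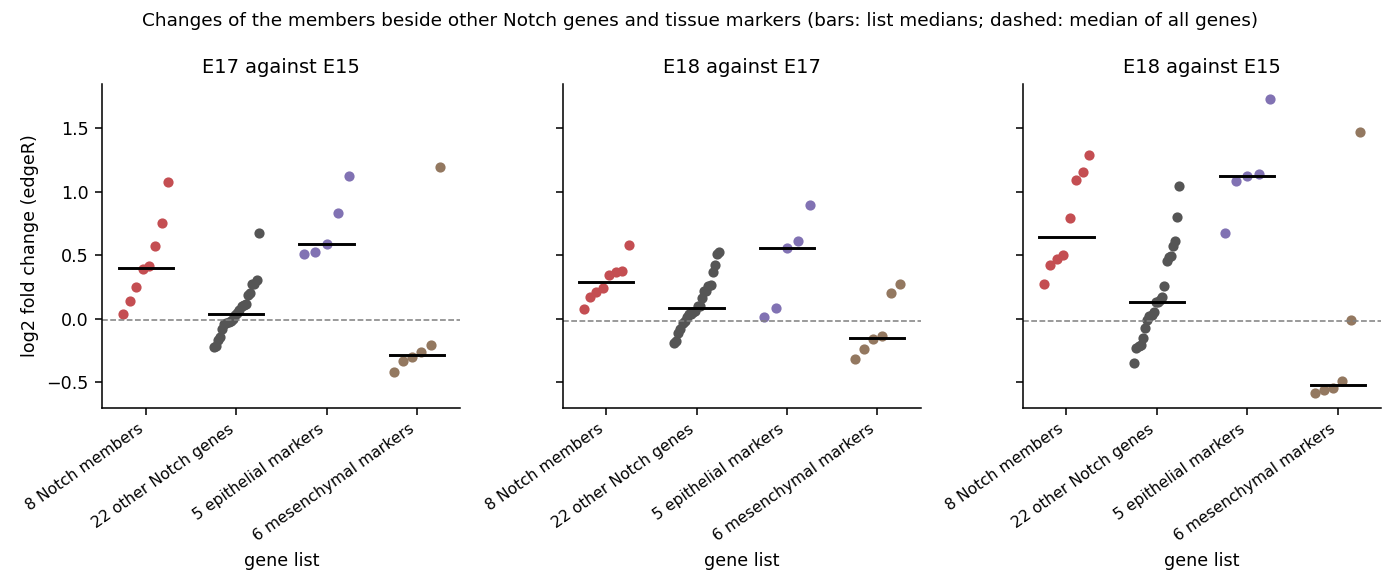
Log2 fold change (y axis) of each gene in 4 lists (x axis) for the 3 comparisons, with the list median as a bar and the median of all genes as a dashed line. In each comparison the median of the 8 members lies above that of the other Notch genes and below that of the 5 epithelial markers.

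Libraries of 1 stage were not equally far apart. E18 replicate 3 was the highest of its stage in 7 of the 8 members and the lowest in Hes1. Over all 12894 genes it was the highest for 37.9% and the lowest for 40.8%, so it stood apart in both directions, with a median difference from the other E18 libraries of 0.00 (log2) over all genes and 0.41 over the members. For the other Notch genes it was the highest in 13 of 23 and the lowest in 6. Jag2 at 1730.5 and Notch3 at 8772 normalized counts in this library, against 1007 to 1260.3 and 5542 to 6806 in the other 4, were examples, as was Dll1 at 175 against 79.4 to 121. The epithelial marker sum of E18 replicate 3, at 9276 normalized counts, lay within the range of the other 4 libraries (8298 to 10648), and its sum of the 5 mesenchymal markers without Col1a1, at 21594, was the highest of the stage. The mural marker Cspg4 stood apart in this library, at 4065 normalized counts against 2723 to 3153 in the other 4. In E15 replicate 3, where Notch3 and Jag2 were lowest, Cspg4 was also the lowest of its stage (1557 against 1737 to 2261). Cspg4 was not alone in this. The sum of all 6 mesenchymal markers, Col1a1 included, was likewise highest in E18 replicate 3 (296091 against 208404 to 274605). It was lowest in E15 replicate 3 (77207 against 92441 to 159043). Without Col1a1, the sum in E15 replicate 3 (27695) lay within the range of the other E15 libraries (27309 to 30288). The part of these markers in the levels of the Notch genes was not tested.

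At E15, replicate 3 was the lowest in Notch3, Jag2 and Lfng and the highest in Notch1 and Hes1. It was the lowest for 29.7% of all genes and the highest for 33.7%. Replicate 4 was the lowest in Notch1, Jag1 and Hes1. It also had the lowest epithelial marker sum of the stage (3790.1 against 4204 to 5578). The highest sum, 5578, was that of replicate 3, which was the lowest in some members and the highest in others. The part of epithelial content in these levels was not tested. The E17 libraries were close to each other, and the SD at E17 was smaller than at E15 in 6 of the 8 members, Jag1 and Dll1 being the exceptions.

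**Figure D5:**
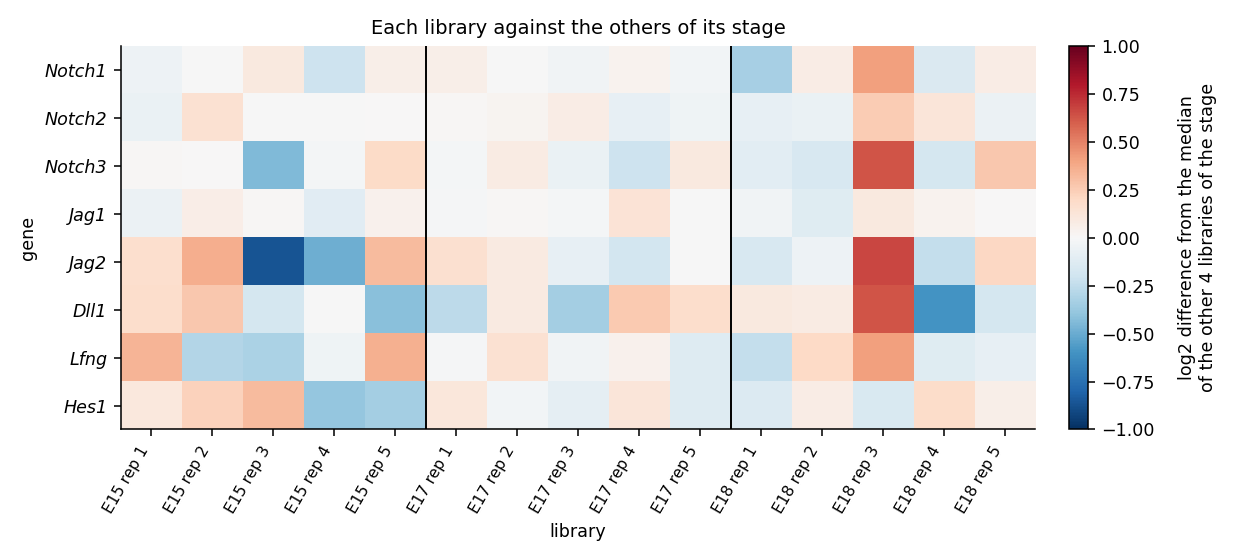
Log2 difference of each library (x axis) from the median of the other 4 libraries of its stage, for the 8 members (y axis); red is higher and blue lower. E18 replicate 3 is red in 7 of 8 genes, Jag2 is low in E15 replicates 3 and 4, and the E17 libraries are pale.

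As a description, the genes whose pattern was most like that of each member were looked up among 329 genes with a symbol and a mean of at least 50 normalized counts, by Pearson's r of log2 values over the 15 libraries. These points share stage and library, so r is given also after subtracting the stage means. Notch1 was closest to Wnt10a (r = 0.988, within stages 0.863) and Nectin1 (0.980, within stages 0.861). Lfng was closest to Sp6 (0.969, within stages 0.508) and Wnt10a (0.962, within stages 0.601). Jag1 was closest to Wnt10a (0.954, within stages 0.451) and Sp6 (0.952, within stages -0.05), so its likeness to Sp6 came from the stage means.

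Notch3 was closest to another member, Jag2 (0.919, within stages 0.881), and to Csnk1g2 (0.917, within stages 0.904). Jag2 was closest to Pik3r2 (0.949, within stages 0.889) and to Aph1a (0.934, within stages 0.870). For both members the likeness within stages was nearly as high as over all libraries, and E15 replicate 3 and E18 replicate 3 were the libraries farthest from their stage in both. Dll1 was closest to Wnt11 (0.932, within stages 0.728) and Col4a1 (0.917, within stages 0.605). Notch2 was closest to Rfng (0.853, within stages 0.757), another fringe gene, and Ikbkb (0.851, within stages 0.779). Hes1 was closest to Perp (0.873, within stages 0.669) and Aqp3 (0.853, within stages 0.622).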

How the data were processed

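RNA of single molar tooth germs was sequenced from libraries of the Ovation Rat RNAseq System. The submitters' processing notes name Trimmomatic, FastQC, STAR, HTSeq and, for E18, Salmon 0.99.0 and DESeq2, with the build Rnor_6.0. The table used holds the estimated counts of salmon as deposited by the authors, already whole numbers, for 14185 mouse Ensembl identifiers in 15 libraries. Strandedness and the transcript set are not given in the sources used here. A second deposited table, of HTSeq counts on rat identifiers, could not be joined to symbols and was not used. Symbols were paired with identifiers through the gene tables of the study (356 of 399 pairs had a row).

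Low genes were removed with filterByExpr, and stages were compared with edgeR 4.0.16 in R 4.3.3 (TMM scaling, quasi-likelihood F test, Benjamini-Hochberg adjustment over all genes tested, threshold 0.05), with only the stages compared in a fit. The difference between the steps used all 15 libraries. SE is the log2 fold change divided by the square root of F. Levels were divided by DESeq2 1.42.0 size factors. The fits were tested on simulated data. With 5 libraries per stage, most of them teeth of separate embryos under 1 title code, p-values measure the spread within such a set. Samples were grouped by the embryonic day in the labels, and replicate numbers follow the order of the records, so they pair nothing. Alternatives were DESeq2, other scalings and filters, a term for the side, all libraries in 1 fit, the teeth of 1 embryo summed and leaving out each library.

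All 8 members were named, with their values in every library, and of the other Notch genes those past the threshold in any comparison. Members, lists and tests were chosen with earlier results of these data known. A few genes of the lists enter the counts and medians but are not reported here by name.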

Additional observations from a re-analysis of the deposited data

Results flagged for a closer look

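In each stage, the highest or lowest library was compared with the range of its 5 libraries by Dixon's ratio, over 36 sets of values of which chance would flag about 1.8, and 4 were flagged. Jag1 in E17 replicate 4 was at 3552 normalized counts, above 3189 to 3249 in the other 4 (gap over range 0.834). The other 3 were total counts: 24109716 in E15 replicate 1, 16239849 in E17 replicate 3 and 27571541 in E18 replicate 1. E17 replicate 4 and the 3 deep libraries were each left out in turn in the fits, and Jag1 stayed higher at E17 than at E15 in all 18 alternatives (adjusted p up to 0.000993).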

How the results depend on the processing

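No paired analysis was possible because the replicate numbers come from the order of the records and mark no embryo shared between stages. The planned repeat on the HTSeq counts was not run, since their rat identifiers could not be joined to symbols. No scaling moved the median of all genes by more than 0.1, and no log2 fold change of a member between stages changed sign. From E15 to E17, 2315 genes and 4 members were called, with 1514 genes when all 15 libraries were in 1 fit, and between 1746 and 2881 genes and 3 and 5 members when 1 library was left out. From E17 to E18, 323 genes and 0 members were called, with 665 genes in DESeq2, 212 with the teeth of 1 embryo summed, 1072 genes and 2 members without both E18 replicates 1 and 3 (chosen after seeing the data), and between 141 and 713 genes and 0 and 1 member when 1 library was left out. From E15 to E18, 2656 genes and 8 members were called, with 2028 to 3567 genes and 4 to 8 members when 1 library was left out. The difference between the steps was called in 71 genes and 0 members, with 43 genes when the teeth of 1 embryo were summed, and 37 to 209 genes and 0 to 2 members when 1 library was left out. There the estimates near 0 changed sign. Jag2 (-0.03) was at 0.0021 by library totals and 0.018 with teeth summed, and between -0.19 and 0.074 with 1 library left out. Dll1 (0.01) was at -0.0088 with teeth summed and between -0.16 and 0.13 with 1 library left out. The cause of these shifts was not tested. Dll1 had the lowest counts of the 8 members, at 38 to 250 per library.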
